A study of Homo sapiens with 6 samples.

Results

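The genes described here were the 4 enzymes of human polyamine synthesis, ODC1, AMD1, SRM and SMS, taken as every entry of the deposited splicing table whose gene symbol was one of these names. They held 136 of the 721551 entries, with 50 for ODC1, 33 for AMD1, 32 for SRM and 21 for SMS, and 4 of the 30275 genes in the table. The cells were SKNBE2, a human neuroblastoma line with amplified MYCN in both groups. One group received DFMO (difluoromethylornithine) at 250 µM for 4 days and the other, labelled Control, had no drug named, with 3 libraries each, all from this single cell line. Nothing in the labels says that the libraries of a group came from separate cultures, so p-values measure the spread between these libraries, which may be technical.

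Polyamines are small, positively charged metabolites that bind RNA and other nucleic acids, and growing cells need them. ODC1 (ornithine decarboxylase), the enzyme that DFMO inactivates and a well-known target of MYC transcription factors, makes putrescine from ornithine. AMD1 (adenosylmethionine decarboxylase) makes the aminopropyl donor, SRM (spermidine synthase) adds an aminopropyl group to putrescine to give spermidine, and SMS (spermine synthase) adds another to give spermine. DFMO acts on the ODC1 protein, so the RNA readout does not report the block itself, and polyamine levels were not part of these data.

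The table gave a percent for each exon, intron or splice site, and the reads behind it. The event reads per library, which count a read in every entry that uses it, were 82918379 to 100005273 in the DFMO libraries and 77648922 to 103250467 in the Control libraries. All 11 noradrenergic neuroblastoma markers had reads, at a summed level of 4720 to 4749 reads per 1000000 event reads (RPM) with DFMO and 4075 to 4223 in Control. Of the other markers, 3 of 9 mesenchymal, 3 of 4 Schwann cell, 2 of 3 blood and 2 of 4 epithelial genes were under 1 RPM in every library. The 9 mesenchymal markers, led by VIM and THY1, summed to 297 to 320 RPM with DFMO and 295 to 306 in Control, and the summed level of each of the other 3 lists stayed under 5 RPM in every library. By the gene test described below, EPCAM (log2 difference 0.82, limma adjusted p = 0.00778), CD68 (0.64, limma adjusted p = 0.0211) and THY1 (0.10, limma adjusted p = 0.0432) were higher with DFMO. FN1 (-0.48, limma adjusted p = 2.9e-04) and COL1A1 (-0.66, limma adjusted p = 0.0292) were lower. The part of these differences in the results on the enzymes was not tested.

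The AMD1 results below turn on which exon its exon 1 was joined to, and the SMS results on which exon its exon 2 was joined to. The joins are shown from the GENCODE 29 transcripts (GRCh38, plus strand), with the 15 bases of the upstream exon in lower case and the 15 bases of the downstream exon in capitals, so that the shared upstream exon and the differing downstream exon can be compared.
AMD1 exon 1 to exon 2 (AMD1-204, chr6:110875215-110887505): tcgcactatcccaagATCTGAGTGGGACAT
AMD1 exon 1 to exon 3 (AMD1-202, chr6:110875215-110888857): tcgcactatcccaagTGAGAGTAGCATGTT
AMD1 exon 1 to exon 5 (AMD1-205, chr6:110875215-110892161): tcgcactatcccaagATGGAGCAGCATATT
AMD1 exon 1 to exon 6 (AMD1-203, chr6:110875215-110892299): tcgcactatcccaagGTACTTATATACTCT
SMS exon 2 to exon 3 (SMS-202, chrX:21967316-21971897): aaacaagaacggcagCTTTGCCAATTTGAG
SMS exon 2 to exon 5 (SMS-201, chrX:21967316-21977061): aaacaagaacggcagATTACCACCCATAGT
The coordinates name the last base of the upstream exon and the first base of the downstream exon. Exon numbers are those of AMD1-204 and SMS-202, and AMD1-205 is annotated as a target of nonsense-mediated decay.

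Of the 4 enzymes, AMD1 rose, ODC1 fell by a small amount, and SRM and SMS did not pass the test. The level of a gene was its summed event reads in RPM, which follows the amount of spliced transcript and grows with the number of entries, so it compares libraries and not genes. It was tested with limma on log2(value + 0.1), and a gene was called at a Benjamini-Hochberg adjusted p below 0.05 over 12561 genes. At that threshold 46.8% of all genes tested were called, 22.6% higher and 24.1% lower with DFMO, and 6.91% were called with a difference of at least 1.5-fold. The call of 2 of the 4 members is therefore close to the background, and the size of each difference says more than the call. In bulk RNA, a difference in the share of cells that express a gene and a difference in its RNA per expressing cell cannot be told apart.

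ODC1, on the minus strand of chr2:10439968-10448504, had 643, 617 and 614 RPM with DFMO, against 743, 732 and 707 in Control. All 3 DFMO libraries lay below all 3 Control libraries. The level with DFMO was 0.859 times that of Control (log2 difference -0.22, SE 0.03, limma adjusted p = 2.2e-06; 95% interval of the ratio 0.827 to 0.892), a called difference that stays below 1.5-fold.

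AMD1, on the plus strand of chr6:110874770-110895713, had 411, 388 and 407 RPM with DFMO, against 112, 107 and 108 in Control. The groups were far apart, with a spread of 12.6 (SD, n = 3) around the DFMO mean of 402 and of 2.69 (SD, n = 3) around the Control mean of 109. The level rose 3.69-fold (log2 difference 1.89, SE 0.03, limma adjusted p = 3.9e-17; 95% interval 3.52 to 3.87), and AMD1 ranked 6 of the 12561 genes by the size of its rise.

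SRM, on the minus strand of chr1:11054589-11060024, had 364, 370 and 365 RPM with DFMO, against 375, 373 and 367 in Control, and the libraries of the groups overlapped. SMS, on the plus strand of chrX:21940573-21994835, had 24.895, 24.221 and 24.999 RPM with DFMO, against 25.005, 25.343 and 24.954 in Control, again with overlap. The 95% interval of the ratio of DFMO to Control was 0.950 to 1.02 for SRM (limma adjusted p = 0.533) and 0.898 to 1.08 for SMS (limma adjusted p = 0.792). By the spread between these libraries, both intervals lay well inside the size of difference seen for AMD1. For SMS only 3 of the 10 joins between consecutive exons had reads listed, and all 10 have close copies elsewhere in the genome, as given below.

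Levels can be compared between the enzymes only per intron. Over the introns with a coverage score in all 6 libraries, AMD1 had 18.4 ± 0.71 spliced RPM per intron with DFMO, against 4.73 ± 0.14 in Control (SD, n = 3 each; 4 introns). ODC1 had 11.8 ± 0.13 with DFMO, against 13.9 ± 0.11 in Control (SD, n = 3 each; 11 introns). SRM had 9.69 ± 0.21 with DFMO, against 9.81 ± 0.08 in Control (SD, n = 3 each; 7 introns). SMS had 8.05 ± 0.14 with DFMO, against 8.08 ± 0.11 in Control (SD, n = 3 each; 3 introns). By these means the order from high to low with DFMO was AMD1, ODC1, SRM and SMS, while in Control it was ODC1, SRM, SMS and AMD1. The libraries of neighbours in each order did not overlap, but the introns of a gene differed far more than the libraries. With DFMO, single introns averaged 2.17 to 18.4 RPM in ODC1, 4.05 to 13.6 in SRM and 5.41 to 9.82 in SMS, so the order among these 3 enzymes depends on which introns were scored. The AMD1 introns averaged 13.5 to 27.5 RPM with DFMO, against 3.20 to 7.30 in Control, and these ranges did not overlap. With DFMO the AMD1 range overlapped those of ODC1 and SRM but not that of SMS. In Control, single introns averaged 2.35 to 21.0 RPM in ODC1, 3.99 to 13.7 in SRM and 5.43 to 9.59 in SMS. Each of these Control ranges overlapped that of AMD1, so the place of AMD1 in either order also depends on which introns were scored.

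**Figure D1:**
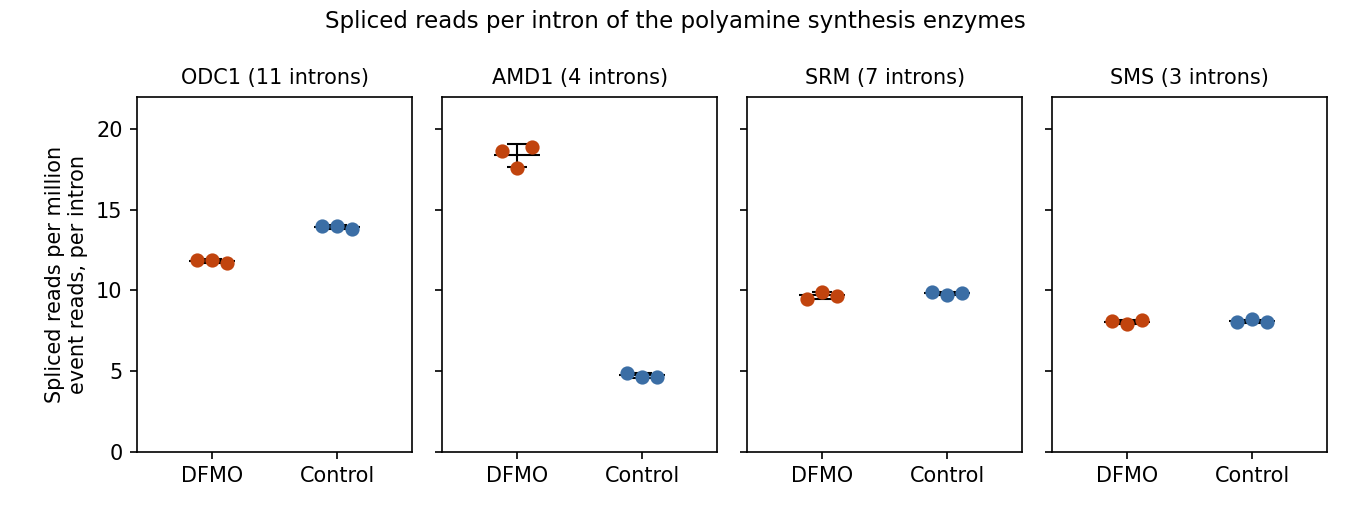
Spliced reads per intron in RPM (vertical axis, from 0) of ODC1, AMD1, SRM and SMS in the DFMO and Control libraries. Points are libraries, horizontal bars are means and error bars are SD (n = 3). By the mean over its scored introns, AMD1 sits at 18.4 with DFMO, above the other enzymes, and at 4.73 in Control, below them.

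The lower ODC1 level was seen along the transcript. All 11 joins between consecutive exons of ODC1-201 had reads, and the ratio of DFMO to Control ran from 0.811 at exon 6 to 7 to 0.925 at exon 1 to 2, with a median of 0.849. In 10 of the 11 joins the DFMO libraries all lay below the Control libraries, and for intron entries in general the share with such a separation was 18.5%. The exception was exon 1 to 2, in the 5′ UTR, where ODC1 had only 219, 172 and 193 spliced reads with DFMO, against 191, 201 and 227 in Control. The joins share transcripts and are not separate replicates of the difference.

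Of the 8 joins between consecutive AMD1-204 exons, 6 had reads listed. All 6 were higher with DFMO without overlap, where 13.7% of intron entries scored in all 6 libraries were separated in that direction. The reads of exon 1 to 2 came from an exon entry, and those of exon 3 to 4 from a splice-site entry. The ratio of DFMO to Control was 4.41 at exon 1 to 2, 2.29 at exon 3 to 4, 4.23 at exon 5 to 6, 3.73 at exon 6 to 7, 3.99 at exon 7 to 8 and 3.77 at exon 8 to 9. The lowest ratio came from the reads of a splice site, which numbered 224, 295 and 189 with DFMO, against 107, 95 and 104 in Control, and the spread of these reads was wide. The joins exon 2 to 3 and exon 4 to 5 had no reads listed, and a join was listed only with a mean of at least 3 reads over the 6 libraries.

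AMD1 has processed pseudogenes in the genome, copies without introns whose transcripts can share reads with it. Over the 80 bases around each join, 40 from each exon, the closest other GENCODE transcript had 79 identical bases at the 2 joins without reads listed. At the 6 joins with reads listed it had 69 to 78 identical bases. The rise was 3.77-fold at exon 8 to 9, where the closest copy had 69 identical bases, 4.23-fold at exon 5 to 6 and 3.73-fold at exon 6 to 7, where it had 73. SMS has close copies as well, with at least 77 identical bases at all 10 of its joins, and only 3 of those joins had reads listed. The ODC1 and SRM joins had at most 72. The part of the pseudogenes in the reads of AMD1 and SMS was not tested.

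For SRM, all 7 consecutive joins had reads, their ratios of DFMO to Control ran from 0.937 to 1.12, and none was separated. For SMS, the 3 joins with reads listed, exon 1 to 2, exon 4 to 5 and exon 5 to 6, had ratios of 0.996, 1.02 and 0.969, with overlap at each.

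**Figure D2:**
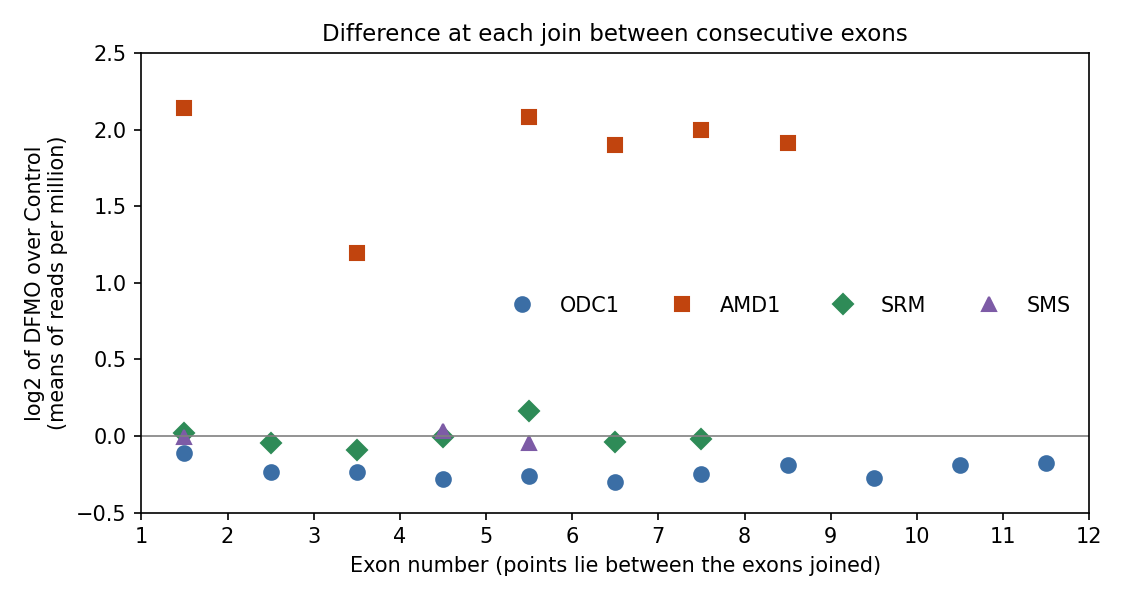
Log2 of the ratio of DFMO to Control (means of 3 libraries, RPM; vertical axis) at each join between consecutive exons, placed by exon number (horizontal axis), for each enzyme. The AMD1 points lie between 1.20 and 2.14, all ODC1 points lie below 0, and the SRM and SMS points lie near 0.

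The AMD1 joins that leave exons out were not separated between the groups, unlike the main join. Exon 2 of AMD1-204, a coding exon of 87 nt at chr6:110887505-110887591, was included at 98.7, 97.9 and 98.7% with DFMO, against 96.1, 94.3 and 94.2% in Control. Every DFMO library was above every Control library, and the means differed by 3.59 points. The share of all exon entries separated in this way was not counted. Of 11083 exon entries tested, 476 were called higher and 125 lower with DFMO, with a median difference of 0.59 points, so the direction was the more common one. The entry lacked the coverage score in 3 of the 6 libraries and was not tested with limma. Its inclusion rests on the exon 1 to 2 join alone, since exon 2 to 3 had no reads in that entry.

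The reads behind that difference show which form moved. The main join, exon 1 to 2, had 1766, 1285 and 1370 reads with DFMO, against 327, 242 and 429 in Control. The join exon 1 to 3, which leaves out exon 2 and keeps the reading frame, had 16, 19 and 12 reads with DFMO, against 9, 10 and 18 in Control. The join exon 1 to 5, which leaves out 317 nt, a length that is not a multiple of 3, had 13, 7 and 9 reads with DFMO, against 15, 7 and 12 in Control. The join exon 1 to 6, which leaves out 360 nt, or 120 codons, had 10, 4 and 7 reads with DFMO, against 8, 0 and 3 in Control.

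At each of these 3 minor joins the libraries of the groups overlapped. Together the 3 minor joins had 0.390, 0.362 and 0.325 RPM with DFMO, against 0.377, 0.219 and 0.320 in Control, a ratio of 1.18 (two-sided exact permutation p = 0.4, where 0.1 is the smallest possible with 3 libraries against 3). As a share of the reads from exon 1 to any of these exons they were 2.16, 2.28 and 2.0% with DFMO, against 8.91, 6.56 and 7.14% in Control, a difference of -5.39 points in means without overlap (two-sided exact permutation p = 0.1). The share was thus lower with DFMO while the amount of the minor joins was not separated between the groups. These joins were singled out after their values were seen, and their counts are small. How often such a share is separated in other genes was not counted.

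For SMS the reverse held in the amounts of reads, with the main joins level and the joins that leave exons out lower with DFMO. Relative to the main join, the joins that leave exons out were lower with DFMO in both genes. The join exon 2 to 4, which leaves out exon 3 of 94 nt, a length that is not a multiple of 3, had 19, 14 and 13 reads with DFMO, against 28, 24 and 33 in Control. The join exon 2 to 5, which leaves out exons 3 and 4, 159 nt or 53 codons, had 11, 10 and 12 reads with DFMO, against 22, 12 and 26 in Control. The ratio of DFMO to Control in RPM was 0.532 for exon 2 to 4 and 0.556 for exon 2 to 5, without overlap at either. For the spliced reads of intron entries scored in every library, 18.5% were separated in that direction. The reads of exon 2 to 5 came from a splice-site entry, so that share is from an unlike set of entries.

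The main join upstream of them, exon 1 to 2, had 534, 429 and 492 reads with DFMO, against 442, 429 and 574 in Control. Relative to it, both SMS joins that leave exons out summed to 5.62, 5.59 and 5.08% with DFMO, against 11.3, 8.39 and 10.3% in Control (difference in means -4.56 points, two-sided exact permutation p = 0.1). The groups did not overlap, but the join exon 2 to 3 had no reads listed, so a share of all joins from exon 2 cannot be given. These joins too were singled out after their values were seen, and no such share was counted for other genes.

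**Figure D3:**
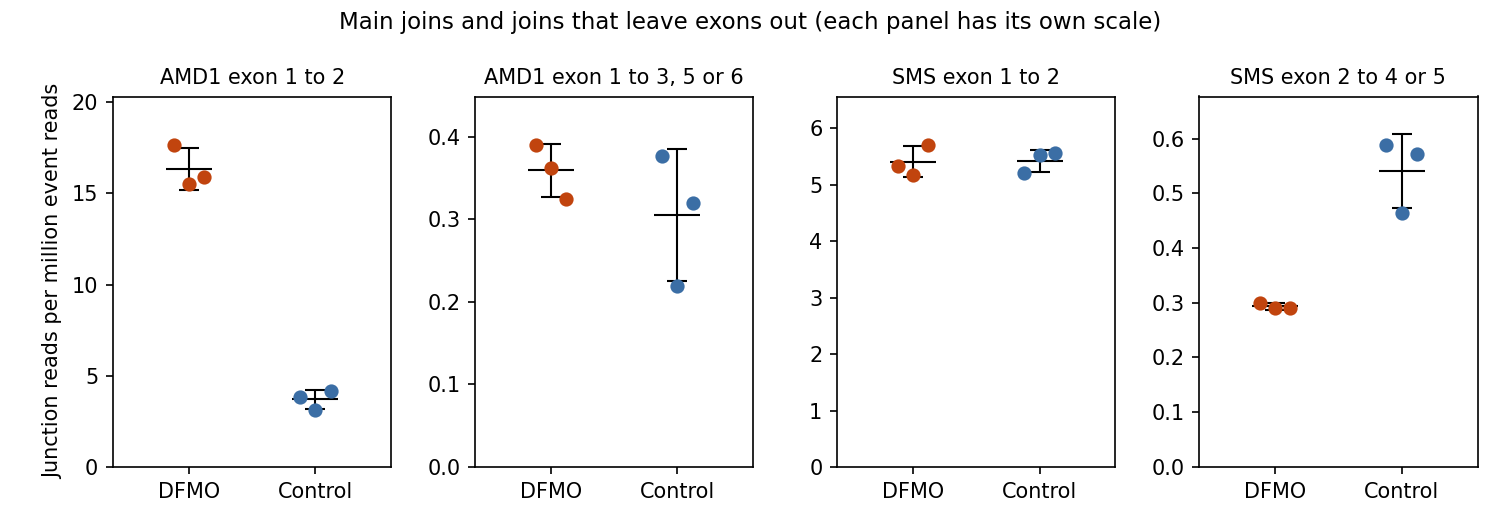
Junction reads in RPM (vertical axes from 0, each panel on its own scale) for the main AMD1 join, the 3 AMD1 joins that leave exons out, the SMS join of exon 1 to 2, and both SMS joins that leave exons out. Points are libraries, horizontal bars are means and error bars are SD (n = 3). The minor AMD1 joins average 0.359 with DFMO and 0.305 in Control, and the minor SMS joins 0.293 with DFMO and 0.541 in Control.

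Introns of these enzymes were almost fully spliced out in both groups. The retained share, the retained reads over all reads of the introns scored in all 6 libraries, was 0.204, 0.218 and 0.190% for ODC1 with DFMO, against 0.101, 0.113 and 0.124% in Control. All DFMO libraries were above all Control libraries (difference in means 0.09 points, two-sided exact permutation p = 0.1), and so they were for 19.2% of 5053 genes with enough retained reads. The median difference over those genes was 0.07 points. Their shares were higher than that of ODC1, with a median of 0.827% in Control and 0.961% with DFMO. The same points are therefore a larger part of the ODC1 share. The ODC1 shares rest on 26.8, 23.7 and 21.1 retained reads with DFMO, against 13.2, 13.5 and 19.5 in Control, in 10872 to 13126 intron reads with DFMO and 11970 to 15682 in Control.

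Among single ODC1 introns with a mean of at least 1 retained read, 3 of 8 were higher with DFMO without overlap, against 11.7% of 21371 such introns in general. They lay next to each other, in the 283-nt intron between exons 3 and 4, the 206-nt intron between exons 4 and 5 and the 258-nt intron between exons 5 and 6. The 283-nt intron had 0.370, 0.230 and 0.540% with DFMO, against 0.060, 0.10 and 0.210% in Control. These percents come from at most 7 retained reads per library.

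AMD1 had a retained share of 0.055, 0.062 and 0.084% with DFMO, against 0.240, 0.171 and 0.208% in Control, without overlap (difference in means -0.14 points, two-sided exact permutation p = 0.1). Of 7898 genes with a mean of at least 1 retained read, 5.95% were lower with DFMO without overlap. Among single AMD1 introns with that mean, 2 of 3 were lower without overlap, against 5.94% of such introns in general, and in 1 of these 2 the nearest libraries had 0.160% with DFMO and 0.161% in Control. As with the minor joins, the retained reads themselves were about level, at 4.12, 3.59 and 5.44 with DFMO, against 4.00, 2.48 and 4.01 in Control. The intron reads they are set against were 7466, 5824 and 6513 with DFMO, against 1666, 1451 and 1924 in Control.

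SRM had 0.341, 0.369 and 0.335% with DFMO, against 0.550, 0.359 and 0.268% in Control, with overlap (difference in means -0.04 points, two-sided exact permutation p = 0.8). The 3 scored SMS introns had 0 retained reads in every library, in 1963 to 2433 intron reads with DFMO and 1912 to 2482 in Control.

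**Figure D4:**
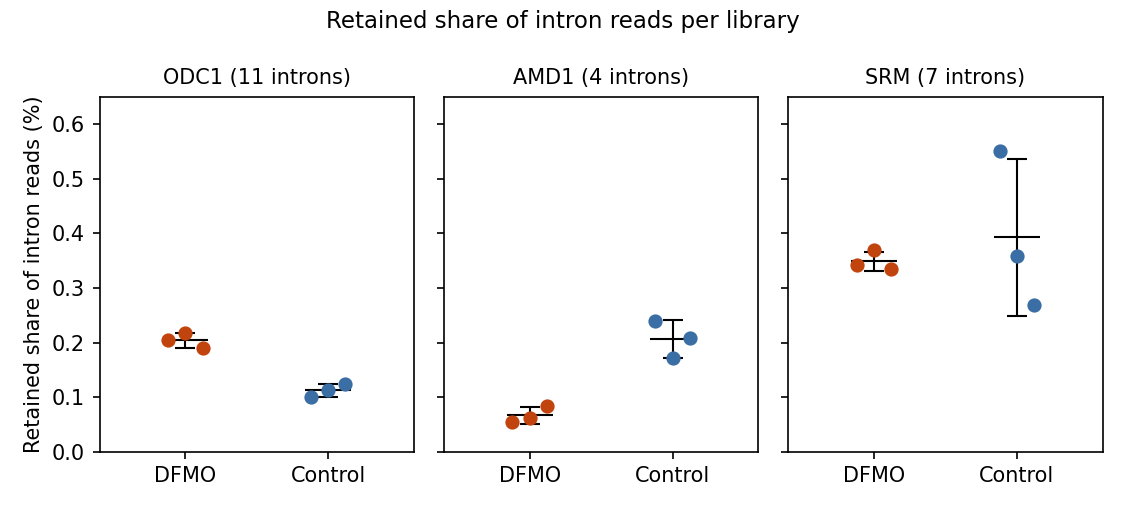
Retained share of intron reads in percent (vertical axis, from 0) for ODC1, AMD1 and SRM in the DFMO and Control libraries. Points are libraries, horizontal bars are means and error bars are SD (n = 3). ODC1 averages 0.204% with DFMO and 0.113% in Control, AMD1 0.067% with DFMO and 0.206% in Control, and the SRM groups overlap.

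Of the 136 entries, 7 had enough reads of both forms for the limma test on log2 odds of inclusion, and 0 of these 7 were called. The count at an unadjusted p below 0.05 was also 0, and so was the count of calls in a quasi-binomial fit. The shares of entries called over all genes were 5.42% for exons, 10.3% for introns, 1.69% for acceptors and 3.1% for donors. The 146-nt exon 6 of SRM at chr1:11055781-11055926 was included at 98.3, 98.9 and 97.9% with DFMO, against 98.7, 98.5 and 99.7% in Control (limma adjusted p = 0.334).

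The 696-nt SRM intron between exons 6 and 7 was retained at 0.300, 0.860 and 0.710% with DFMO, against 1.20, 1.14 and 0.600% in Control (limma adjusted p = 0.282). The 431-nt SRM intron between exons 1 and 2 was retained at 1.69, 2.49 and 1.64% with DFMO, against 2.70, 1.03 and 0.90% in Control (limma adjusted p = 0.590). In all of these the groups overlapped.

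An acceptor inside ODC1 exon 4, which removes 100 nt of it, was used at 1.14, 1.79 and 2.0% with DFMO, against 1.39, 1.38 and 1.65% in Control (limma adjusted p = 0.915). A minor acceptor upstream of SRM exon 2 was used at 2.74, 2.60 and 0.570% with DFMO, against 0.820, 1.62 and 0.850% in Control (limma adjusted p = 0.807). Each of these 2 acceptors has a mirror entry for the main acceptor, which makes up the 7 tested entries and carries the same p.

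The genes around the synthesis enzymes moved in both directions. Over all genes tested, 22.6% were called higher and 24.1% lower with DFMO, and the counts of calls in these lists are to be read against those shares. Among the antizymes and their inhibitors, 1 of 4 genes tested rose, 2 fell and 1 did not pass, with a median log2 difference of -0.46, against a median of 0.00 over all genes tested. Antizymes bind ODC1 protein and send it to the proteasome. OAZ1 had 269, 263 and 263 RPM with DFMO, against 554, 549 and 534 in Control (log2 difference -1.04, SE 0.03, limma adjusted p = 1.2e-14). OAZ2 had 53.1, 50.5 and 55.6 with DFMO, against 100.1, 98.6 and 100.7 in Control (log2 difference -0.91, SE 0.05, limma adjusted p = 8.3e-11).

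AZIN1, which binds antizymes and so spares ODC1, had 705, 719 and 711 RPM with DFMO, against 427, 466 and 465 in Control (log2 difference 0.65, SE 0.03, limma adjusted p = 3.8e-11). In each of these 3 genes the libraries of the groups were fully separated, and the share of all genes with such a separation was not counted. In the lists below it was also seen in 6 of the 9 MYC network genes and 4 of the 8 transport genes tested, so it does not set these 3 apart. In catabolism, 0 of 4 genes rose, 2 fell and 2 did not pass, with a median of -0.28. SAT1, the acetyltransferase that starts polyamine breakdown and export, had 2.80, 2.06 and 2.08 RPM with DFMO, against 11.8, 14.4 and 13.2 in Control (log2 difference -2.46, SE 0.14, limma adjusted p = 4.0e-10). SMOX, which oxidises spermine, had 1.77, 2.58 and 1.90 with DFMO, against 3.52, 2.82 and 3.42 in Control (log2 difference -0.63, SE 0.18, limma adjusted p = 0.00892).

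In the remaining pathway lists and the MYC network, no gene passed both the test and 1.5-fold. Over all genes tested, 6.91% passed both, and 46.8% passed the test at any size of difference. Of the transport genes, 1 of 8 rose, 1 fell and 6 did not pass (median log2 difference 0.02). For ornithine supply and use, 1 of 5 rose, 1 fell and 3 did not pass (median 0.05). For the supply and salvage of the aminopropyl donor, the step AMD1 draws on, 3 of 9 rose, 3 fell and 3 did not pass (median -0.02). Among them MAT2A, which makes the AMD1 substrate S-adenosylmethionine, had a log2 difference of 0.04 (SE 0.03, limma adjusted p = 0.347). For hypusination, which uses spermidine to modify eIF5A, 0 of 4 rose, 2 fell and 2 did not pass (median -0.11). In the MYC network, 3 of 9 rose, 2 fell and 4 did not pass (median 0.05). MYCN itself had 363, 350 and 364 RPM with DFMO, against 335, 349 and 357 in Control (log2 difference 0.05, SE 0.03, limma adjusted p = 0.178), and its groups overlapped. OAZ3, ARG1, MAT1A and MYC, the other genes of the pathway lists and the MYC network, had too few reads to be tested.

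**Figure D5:**
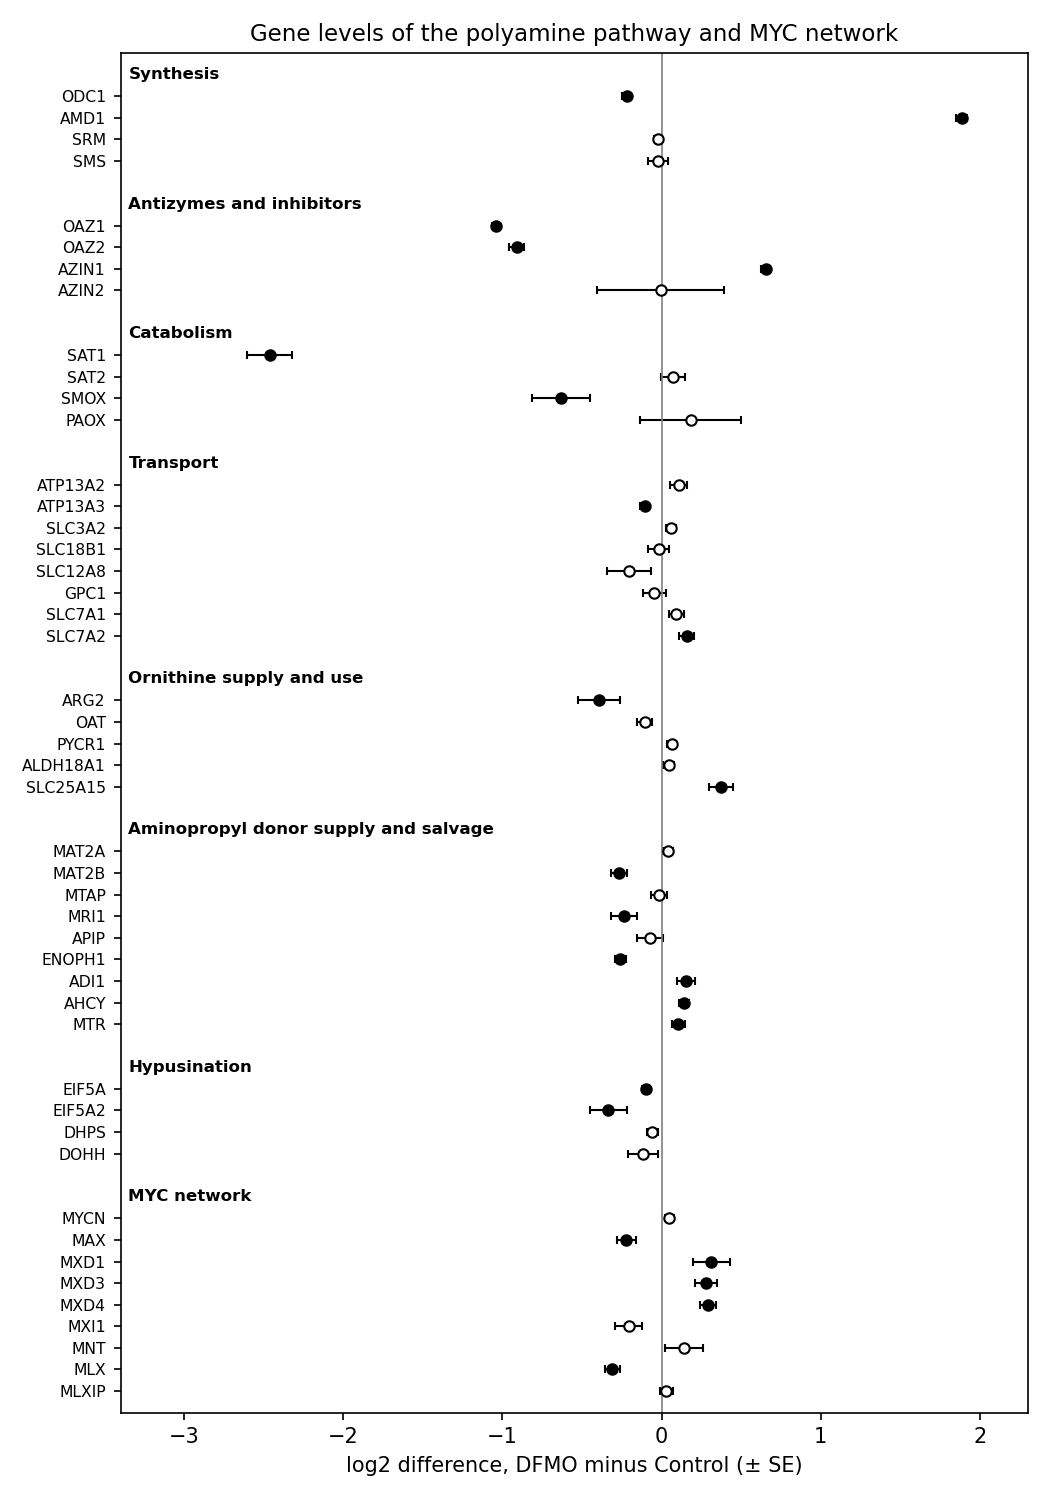
Log2 difference in gene level, DFMO minus Control, with SE (horizontal axis) for the synthesis enzymes and the tested genes of each list (vertical axis). Filled points passed an adjusted p below 0.05 in limma and open points did not. AMD1 lies at 1.89 on the right, SAT1 at -2.46 on the left, and most other genes lie close to 0.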

How the data were processed

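Stranded mRNA libraries were sequenced as single reads of 100 nt, per the labels. The authors deposited 1 table with a percent per splicing event and library, mapped to GRCh38 per the submitters' processing notes. No source used here names the aligner or quantifier. A quality text beside each deposited percent holds a coverage score and reads for inclusion and exclusion, from which all percents were recomputed to within 0.5 points. These reads need not be whole and can be shared between entries, so no count model was used.

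Gene levels were summed event reads per 1000000 event reads (RPM), for genes with a mean of at least 50 reads, tested with limma 3.58.1 (R 4.3.3; trend, robust) on log2(value + 0.1). An entry was tested for splicing if every library scored LOW or higher with 10 or more reads, and both forms averaged 5 or more reads. Its log2 odds, with 0.5 added, were fitted with limma (robust, trend on the counting variance). Adjustment was by Benjamini-Hochberg over all genes, or all entries of a class. Both fits were checked on simulated data. Junction reads came from intron entries, else exon entries, else splice-site entries. Close copies of joins were sought with BLAST 2.17.0 in GENCODE 29 transcripts. The intervals of ratios come from the limma fits.

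Named were every member, its tested entries, untested entries without overlap, with at least 10 reads in each library and at least 2 points apart, genes of the pathway lists and the MYC network called with at least 1.5-fold, and the 3 genes nearest to each called member. Other genes, markers included, and joins were named after their values were seen. The members and lists were chosen with earlier results of these data known. Replicate numbers are shared between the groups. The alternatives tried were other pseudocounts, filters, scalings and entry sets, other splicing models, a replicate block, and leaving out each library.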

Additional observations from a re-analysis of the deposited data

How the results depend on the processing

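The direction and the call of the AMD1 level were kept under all 18 alternatives, with log2 differences of 1.52 (mean over entries) to 1.99 and 1.87 to 1.91 when 1 library was left out. The ODC1 level ran from -0.24 to -0.19 (-0.24 to -0.20 with 1 library left out) and lost its call only where at least 1.5-fold was required (-0.22), which its size does not reach. SRM and SMS were not called under any alternative run. The replicate block left the log2 differences at 1.89 for AMD1 (limma adjusted p = 1.1e-18) and -0.22 for ODC1 (limma adjusted p = 5.6e-07). It changed no call of a member, with 5819 genes called. After the group means were taken off each gene, same-numbered libraries of the 2 groups correlated at 0.04, 0.03 and 0.01. Libraries with different numbers correlated at -0.04 to 0.01, so the numbers do not show a clear pairing.

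The count of genes called, 5874, was 3402 of 9985 with splice-site entries only, 868 with at least 1.5-fold and 5165 to 5353 with 1 library left out. Requiring at least 10 points left 267 of 601 exon, 145 of 542 intron, 42 of 79 acceptor and 67 of 106 donor entries called. Without the variance trend these counts were 9, 4, 4 and 1, and the cause was not tested. On the percent scale 51 acceptor and 62 donor entries were called, with the quasi-binomial fit 57 donor entries, and with mean percents between 5 and 95 there were 316 intron entries. With 1 library left out, 396 to 562 exon, 300 to 486 intron, 27 to 70 acceptor and 57 to 82 donor entries were called.

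The retained share of AMD1 differed by -0.18 points as a mean of percents and by -0.16 to -0.12 with 1 library left out. That of ODC1 ran from 0.08 to 0.10, that of SRM from -0.11 to 0.03 with 1 library left out, and that of SMS was 0.040 over all introns, scored or not, and 0 with any 1 library left out. Depth limits the minor joins, which rest on fewer than 40 reads per library for the summed AMD1 joins and fewer than 60 for the summed SMS joins.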

Other observations

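The genes whose levels moved most like AMD1 over the 6 libraries, by Euclidean distance between log2 levels centred on the Control mean, were PHKA2-AS1 (distance 0.58), NEAT1 (0.79) and GSTO2 (0.82). Their log2 differences were 1.62, 2.21 and 2.20, against 1.89 for AMD1, and all had under 10 RPM with DFMO on average. PHKA2-AS1 and NEAT1 are annotated long noncoding RNAs. The genes nearest to ODC1 were RUVBL1 (distance 0.02), RAB4A (0.03) and CABLES1 (0.04), with log2 differences of -0.21, -0.20 and -0.24 (limma adjusted p = 1.3e-05, 4.8e-04 and 0.0121). The genes near AMD1 and ODC1 were picked by these same 6 libraries, so their differences and p-values follow from the choice.

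SKNBE2 cells carry amplified MYCN, whose protein binds the letters CACGTG together with MAX. The RefSeq promoter windows of the enzymes (GRCh38.p14, 250 bases before to 50 after an annotated start) were searched for these letters, which read the same on both strands. The SRM window held 1 match and a downstream ODC1 window held 2, while the upstream ODC1 window, the SMS window and all 3 AMD1 windows held 0. Both ODC1 matches lie within the intron between exons 1 and 2 of ODC1-201, the transcript used above. In general 7.26% of 35116 windows held a match. The matches are shown in capitals within 30 bases of the minus strand.
SRM (chr1:11060200-11060229): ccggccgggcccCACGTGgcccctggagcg
ODC1 (chr2:10448024-10448053): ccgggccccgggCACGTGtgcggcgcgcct
ODC1 (chr2:10447990-10448019): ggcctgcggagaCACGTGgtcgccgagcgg
A match describes the letters only, and binding was not measured in these data.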
